A study of Mus musculus with 39 samples.

Results

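Adventitial fibroblasts sit in the connective tissue sleeve around airways and large vessels of the lung. The 10 genes described here, Clec3b, Dpt, Pi16, Cd34, Ly6a, Dpp4, Scara5, Il33, Cilp and Osr2, are commonly used to mark them, and they were taken by symbol from the 30012 genes of the count table. The cells were fibroblasts from wild-type C57BL/6 mouse lungs, isolated on an AutoMACS separator by removing cells that carry CD45 or Ter119 (blood cells), CD31 (endothelium), EpCAM (epithelium) or CD146 (mainly mural and endothelial cells). They were grown in DMEM with fetal bovine serum, passaged into 24-well plates and starved of serum for 24 h. C1q, the recognition molecule of the classical complement pathway (MilliporeSigma), was then added at 1, 10 or 100 µg/ml for 2, 24, 48 or 72 h. Each of these 12 groups and 1 untreated group taken at 0 h held 3 libraries, 39 in all, of poly(A) RNA read from the 5′ end. No untreated or buffer-only cells from 2 to 72 h were analysed here, so C1q and time in culture cannot be told apart in any comparison with untreated cells. Comparisons between doses at 1 time share the time in culture.

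In the lung, adventitial fibroblasts form part of a collagen-rich niche with lymphatic vessels, nerves and resident immune cells, and they are a source of the cytokine IL-33 for group 2 innate lymphoid cells. Cells that carry Pi16 and Dpp4 are found in the adventitia of many organs and are often described as a progenitor-like fibroblast state. Alveolar fibroblasts, the other large fibroblast population of the lung, line the gas-exchange region and are marked by other genes. None of the 10 genes is restricted to the adventitia: Cd34 and Ly6a, for example, are also expressed by endothelial cells, and Ly6a is induced by interferons.

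All 10 genes passed edgeR's default filter on low counts, which left 14419 genes. Library totals ran from 1806106 to 3012518 counts. Levels are given as counts-per-million values (CPM) on library sizes scaled by the TMM method, and differences as log2 values ± SE from edgeR's quasi-likelihood fit with 3 libraries per group. A gene was called when its Benjamini-Hochberg adjusted p over all tested genes was under 0.05. The replicate libraries differed by more than counting noise, with a chi-square per degree of freedom of 1.31 to 8.48 over 39 pairs. The 2 highest values, 8.02 and 8.48, both involved library 3 of the 1 µg/ml group at 24 h, and no other pair exceeded 4.34. In library 1 of the 10 µg/ml group at 48 h, interferon-induced genes stood far above all other libraries, which bears on Ly6a below.

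The fibroblast label was checked against 7 general markers (Col1a1, Col1a2, Col3a1, Pdgfra, Dcn, Lum and Pdgfrb), whose summed level was 5391 to 6115 CPM in untreated cells and 7505 to 9328 CPM at 72 h. The summed level of the 10 adventitial markers was 201 to 225 CPM in untreated cells, 166 to 199.9 CPM at 2 h, 433 to 796 CPM at 24 h, 861 to 1368 CPM at 48 h and 1129 to 1341 CPM at 72 h. Other cell types were present in trace or moved over the same times. The 9 macrophage and myeloid genes summed to 225 to 245 CPM in untreated cells, 175 to 225 at 2 h, 258 to 365 at 24 h, 513 to 688 at 48 h and 807 to 1378 CPM at 72 h, and all 9 were called higher than untreated at 100 µg/ml after 72 h. The 7 epithelial genes went the other way, from 475 to 555 CPM in untreated cells to 185 to 267 at 24 h and 83.2 to 118 CPM at 72 h, with all 7 called lower at 100 µg/ml after 72 h. The 6 mesothelial genes summed to 262 to 272 CPM in untreated cells and 343 to 586 CPM at 72 h, and the 8 endothelial genes to 62.5 to 72.4 and 50.7 to 100.2 CPM. The 4 lymphocyte genes, Cd3e, Cd79a, Ms4a1 and Cd3g, were all at 0 counts in untreated cells and reached at most 2.04 CPM in any library. The 5 myofibroblast genes (Acta2, Tagln, Myl9, Cnn1 and Actg2) summed to 2083 to 2412 CPM in untreated cells. Their sum was 1093 to 1689 CPM at 24 h and 1348 to 2972 CPM at 72 h. Against untreated cells, 5, 5 and 4 of them were called lower at 1, 10 and 100 µg/ml after 24 h. After 72 h 0, 1 and 4 were called lower and 1, 1 and 0 higher. In bulk RNA, more cells of a type and more RNA per cell cannot be told apart, and the part of these shifts in the results below was not tested.

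Against untreated cells, 4 to 8 of the 10 adventitial markers were called higher from 24 h on, depending on dose and time, and the size of the rise differed widely between them. At 2 h, 0 members were called higher and 1, Osr2, was called lower at each dose. Of all tested genes at 2 h, 4.28%, 7.64% and 3.14% were called higher and 1.87%, 5.1% and 2.02% lower at 1, 10 and 100 µg/ml. At 24 h, 8, 8 and 4 of the 10 markers were called higher at these doses, against 10.9%, 12.5% and 16.8% of all tested genes, and 0, 0 and 1 lower, against 14.3%, 15.3% and 19.9%. At 48 h, 6, 6 and 4 were called higher, against 16%, 17% and 19.1% of all tested genes, and 0 lower, against 17.1%, 17.5% and 20.9%. At 72 h, 6, 7 and 8 were called higher, against 18.1%, 19.3% and 22.5%, and 0 lower, against 20.1%, 20.6% and 23.3%. Clec3b, Dpt and Cilp were called higher at every dose from 24 h on, and Dpp4 was called in 0 of the 12 comparisons. Without library 3 at 1 µg/ml after 24 h, all 8 calls of that group were kept. The plots of levels by library and of log2 differences by group show the 10 genes side by side.

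**Figure D1:**
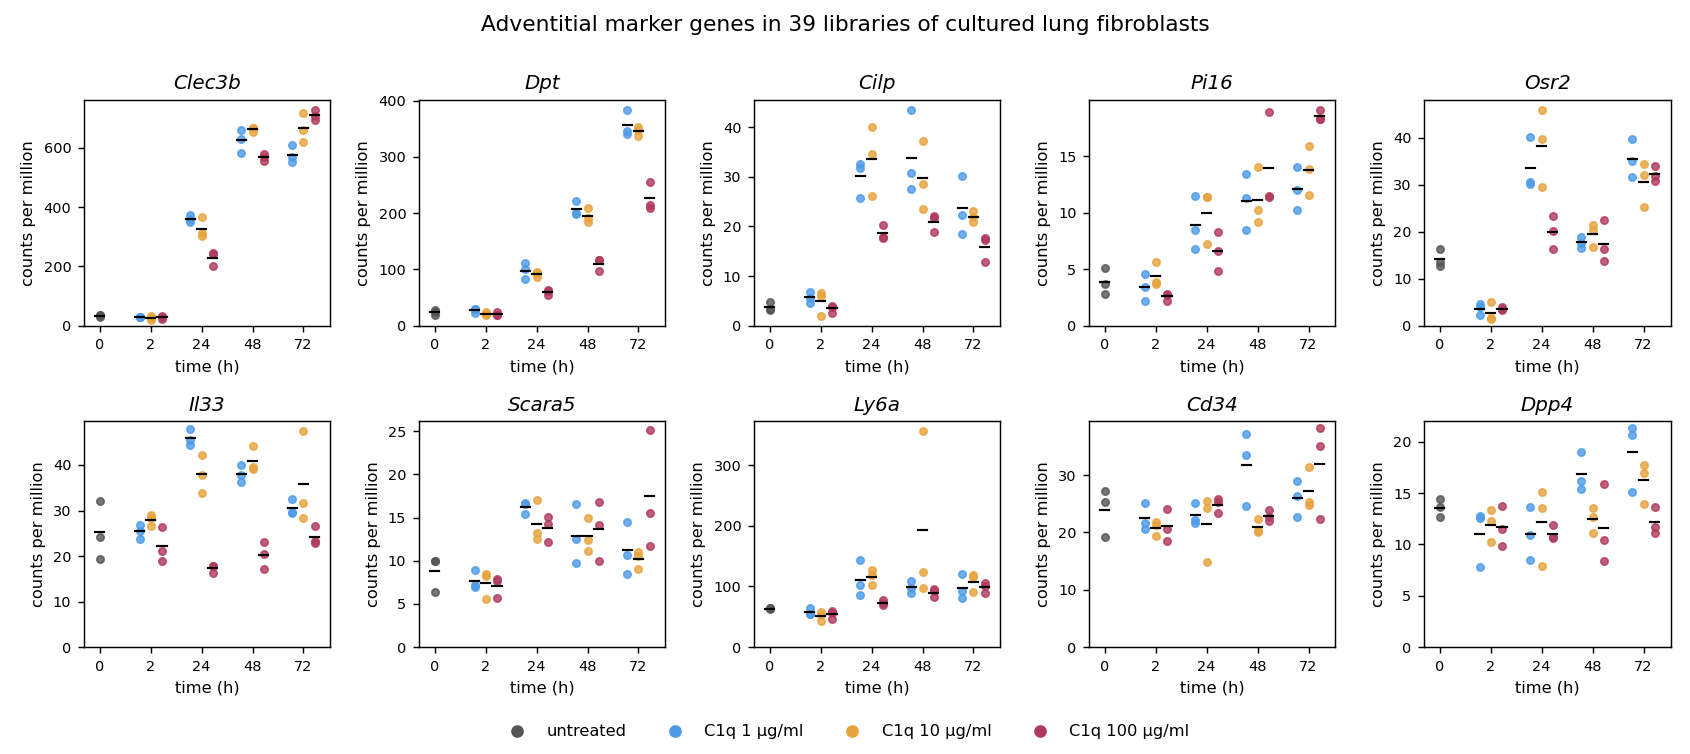
Level of each of the 10 adventitial markers (counts-per-million, linear axis starting at 0) in all 39 libraries against time in h, with 1 point per library, colours for untreated cells and the 3 C1q doses, and a black bar for the mean of each group of 3. Clec3b and Dpt are far above their untreated level from 24 h on, Osr2 is low at 2 h, and 1 library of the 10 µg/ml group at 48 h stands alone in Ly6a at 357 CPM.

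**Figure D2:**
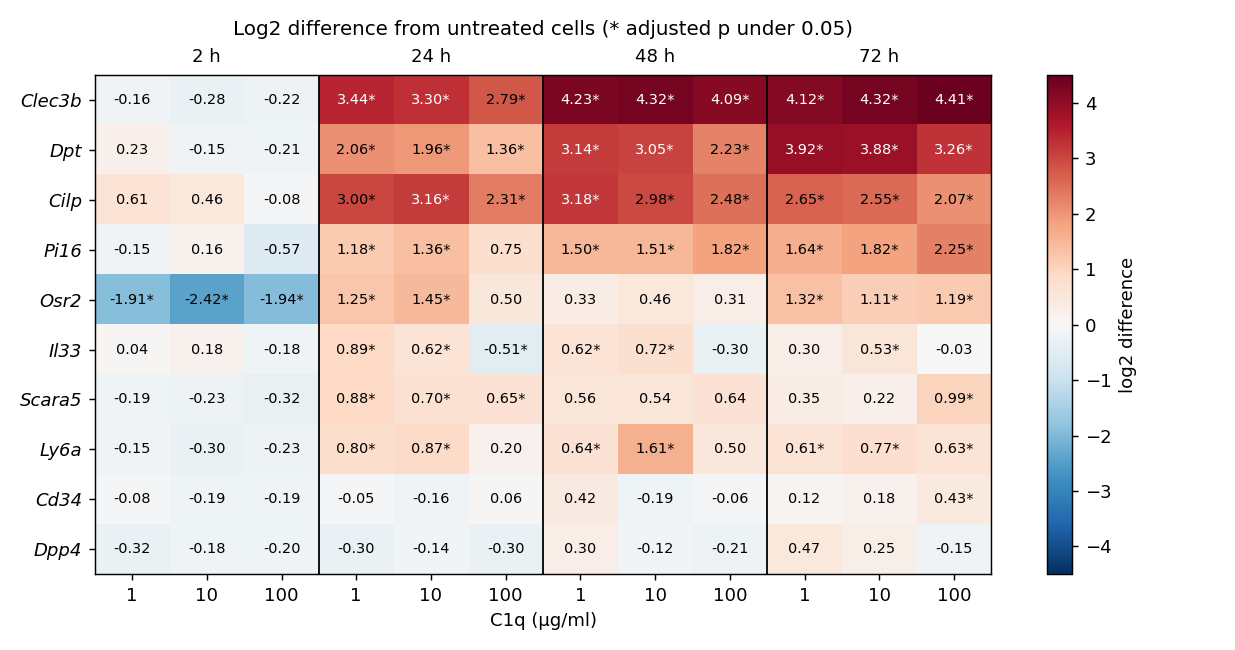
Log2 difference of each of the 12 C1q groups from untreated cells for the 10 genes, with time across the top, C1q dose in µg/ml along the bottom and an asterisk where the adjusted p of edgeR's quasi-likelihood test was under 0.05. The values range from -2.42 for Osr2 at 10 µg/ml after 2 h to 4.41 for Clec3b at 100 µg/ml after 72 h.

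Clec3b (GRCm38 chromosome 9, 123150946 to 123157432) encodes tetranectin, a secreted C-type lectin that binds plasminogen. Its level in untreated cells was 35.7, 27.9 and 35.3 CPM, and at 2 h it was 28, 30.8 and 30.6 CPM at 1 µg/ml, 33.6, 20.4 and 26.6 CPM at 10 µg/ml and 32.6, 23.1 and 30.7 CPM at 100 µg/ml. These groups overlapped. At 24 h the libraries read 374, 359 and 349 CPM at 1 µg/ml, 365, 314 and 304 CPM at 10 µg/ml and 245, 241 and 202 CPM at 100 µg/ml, and every one of the 9 lay above every untreated library. At 48 h the levels were 631, 661 and 583 CPM at 1 µg/ml, 666, 668 and 653 CPM at 10 µg/ml and 580.2, 567 and 555 CPM at 100 µg/ml, with the 100 µg/ml libraries again below the others, by little. At 72 h they were 568, 553 and 610.0 CPM at 1 µg/ml, 619, 717 and 660.3 CPM at 10 µg/ml and 726, 693 and 708 CPM at 100 µg/ml. The differences from untreated cells at 1, 10 and 100 µg/ml were 3.44 ± 0.12, 3.30 ± 0.12 and 2.79 ± 0.12 at 24 h, 4.23 ± 0.12, 4.32 ± 0.12 and 4.09 ± 0.12 at 48 h and 4.12 ± 0.12, 4.32 ± 0.12 and 4.41 ± 0.12 at 72 h. The last of these is 21.3-fold, and its adjusted p was 3.5e-31 (edgeR's quasi-likelihood test). In order of mean level, the 3 groups at 2 h and untreated cells came lowest and overlapped, the 24 h groups followed with 100 µg/ml below both other doses, and the 48 and 72 h groups came highest.

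Dpt (chromosome 1, 164796663 to 164824274) encodes dermatopontin, an extracellular matrix protein that binds decorin and assists collagen fibril assembly. Untreated libraries stood at 24, 28.4 and 18.7 CPM, and the 9 libraries at 2 h lay between 18.6 and 30.2 CPM. At 24 h they read 111, 99.8 and 83 CPM at 1 µg/ml, 95.3, 86 and 94.3 CPM at 10 µg/ml and 64.1, 62.1 and 55.4 CPM at 100 µg/ml. At 48 h they read 221, 200.3 and 199 CPM at 1 µg/ml, 209, 185 and 190.5 CPM at 10 µg/ml and 117, 117 and 96.6 CPM at 100 µg/ml. At 72 h they read 383, 339.8 and 346 CPM at 1 µg/ml, 336, 354 and 347 CPM at 10 µg/ml and 255, 215 and 209 CPM at 100 µg/ml. The 100 µg/ml libraries lay below all libraries of the other doses at 24, 48 and 72 h. Differences from untreated cells at 1, 10 and 100 µg/ml were 2.06 ± 0.14, 1.96 ± 0.14 and 1.36 ± 0.14 at 24 h, 3.14 ± 0.13, 3.05 ± 0.13 and 2.23 ± 0.14 at 48 h and 3.92 ± 0.13, 3.88 ± 0.13 and 3.26 ± 0.13 at 72 h, all called, with adjusted p of 2.5e-28, 3.8e-28 and 8.6e-25 at 72 h. Dpt was still higher at 72 h than at 48 h at each dose.

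Cilp (chromosome 9, 65265180 to 65280614) encodes cartilage intermediate layer protein, a matrix protein that binds transforming growth factor beta. It had few counts in untreated cells, 8, 9 and 8, or 3.21, 4.74 and 3.41 CPM. At 24 h its levels were 31.9, 25.8 and 32.6 CPM at 1 µg/ml, 34.7, 26.1 and 40.01 CPM at 10 µg/ml and 20.2, 17.9 and 17.8 CPM at 100 µg/ml. At 48 h they were 43.4, 30.7 and 27.6 CPM at 1 µg/ml, 23.5, 28.5 and 37.2 CPM at 10 µg/ml and 22.1, 21.8 and 18.9 CPM at 100 µg/ml. All 100 µg/ml libraries lay below those of the other doses at both times, and again at 72 h, with 30.3, 18.6 and 22.3 CPM at 1 µg/ml, 23, 21 and 21.9 CPM at 10 µg/ml and 17.7, 12.9 and 17.2 CPM at 100 µg/ml. All 27 of these libraries lay above the untreated ones. Differences from untreated cells at 1, 10 and 100 µg/ml were 3.0 ± 0.28, 3.16 ± 0.27 and 2.31 ± 0.30 at 24 h and 2.65 ± 0.29, 2.55 ± 0.29 and 2.07 ± 0.32 at 72 h, and all 9 calls from 24 to 72 h held on leaving out any 1 library. Cilp reached its highest group mean at 1 µg/ml after 48 h.

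Pi16 (chromosome 17, 29318796 to 29328903) encodes peptidase inhibitor 16, a secreted protein of the CAP superfamily. Its untreated counts were 7, 7 and 12, or 2.81, 3.68 and 5.11 CPM. At 24 h the libraries read 6.81, 8.49 and 11.4 CPM at 1 µg/ml, 11.4, 7.19 and 11.4 CPM at 10 µg/ml and 8.31, 6.58 and 4.88 CPM at 100 µg/ml, and those at 100 µg/ml overlapped untreated cells. At 48 h they read 8.46, 11.3 and 13.4 CPM at 1 µg/ml, 9.16, 10.2 and 14.1 CPM at 10 µg/ml and 18.9, 11.3 and 11.5 CPM at 100 µg/ml. At 72 h they read 10.2, 12 and 14.1 CPM at 1 µg/ml, 11.5, 13.9 and 15.9 CPM at 10 µg/ml and 18.2, 18.3 and 19.1 CPM at 100 µg/ml. The 3 libraries at 100 µg/ml after 72 h lay close together and above those of both other doses. Pi16 was higher than in untreated cells by 1.18 ± 0.32 and 1.36 ± 0.32 at 1 and 10 µg/ml after 24 h, and by 2.25 ± 0.29 at 100 µg/ml after 72 h (adjusted p = 8.8e-09, edgeR's quasi-likelihood test). At 100 µg/ml after 24 h the difference was 0.75 ± 0.34 and was not called (adjusted p = 0.077). Without library 3 of that group it was 0.92 and called (adjusted p = 0.048).

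Promoter sequences are shown for 2 members that rose strongly and for 1 with another pattern, with simple motifs marked. RefSeq windows of the GRCm38.p6 build, each 300 bases from 250 before to 50 after a transcription start, were matched by symbol for 6 of the 10 members (7 windows, since Il33 has 2). Those of Dpt and Cilp, which rose most among the matched genes, and the upstream window of Il33, the member with the largest difference between doses, are given 5′ to 3′ up to 30 bases after the start. Capitals mark matches on either strand to 6 motifs. Among them were TATAAA, known as the TATA box, with CCAAT, the motif of the factor NF-Y, and GGGCGG, the GC box of the Sp1 family. The others were TGANTCA, which AP-1 factors recognise, then GGAATG, recognised by TEAD factors, and finally CAGCTG, an E-box read by basic helix-loop-helix factors.
Dpt (GRCm38.p6 chr1:164796413-164796692, plus strand): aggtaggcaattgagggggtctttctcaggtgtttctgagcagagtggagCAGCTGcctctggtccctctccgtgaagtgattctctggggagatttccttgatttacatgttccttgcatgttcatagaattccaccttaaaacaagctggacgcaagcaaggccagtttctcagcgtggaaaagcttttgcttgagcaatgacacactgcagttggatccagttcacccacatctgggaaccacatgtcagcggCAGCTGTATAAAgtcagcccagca
Cilp (GRCm38.p6 chr9:65264930-65265209, plus strand): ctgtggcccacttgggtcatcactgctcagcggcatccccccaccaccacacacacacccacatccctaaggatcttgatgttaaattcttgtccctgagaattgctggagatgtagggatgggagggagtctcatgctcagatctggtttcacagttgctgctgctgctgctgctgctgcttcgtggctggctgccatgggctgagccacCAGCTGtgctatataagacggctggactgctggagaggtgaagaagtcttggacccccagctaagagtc
Il33 (GRCm38.p6 chr19:29924863-29925142, plus strand): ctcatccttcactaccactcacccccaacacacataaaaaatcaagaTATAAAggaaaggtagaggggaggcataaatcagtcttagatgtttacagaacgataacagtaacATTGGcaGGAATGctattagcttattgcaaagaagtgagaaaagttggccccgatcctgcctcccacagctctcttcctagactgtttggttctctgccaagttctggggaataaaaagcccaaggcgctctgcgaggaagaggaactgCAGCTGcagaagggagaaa
In Dpt the last CAGCTG runs directly into TATAAA without overlap, at positions 7 and 13 counted from 1 at the start. CAGCTG was found in these 3 windows and in that of Pi16, 4 of the 7 member windows, against 16.3% of the 32851 windows in the RefSeq table. TATAAA was found in 4 of the 7 windows, CCAAT in 2, GGAATG in 3, and the GC box and the AP-1 motif in 0, against 13.6%, 37.4%, 14.7%, 35.7% and 7.81% of all windows. The TATAAA matches began at 13 from the start in Dpt, at -227 in Dpp4, and at -203 and -29 in the 2 windows of Il33. A match describes these letters only, and nothing about binding was measured.

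The cell-surface members moved less. Ly6a (chromosome 15, 74994877 to 74998031), which encodes the lipid-anchored antigen Sca-1, stood at 64.1, 63.7 and 62.6 CPM in untreated cells. At 24 h it read 143, 102 and 86 CPM at 1 µg/ml, 118, 103 and 128 CPM at 10 µg/ml and 77.2, 72.4 and 69 CPM at 100 µg/ml, with the 100 µg/ml libraries below those of the other doses. At 48 h it read 109, 98.1 and 88.6 CPM at 1 µg/ml, 357, 96.7 and 124 CPM at 10 µg/ml and 82, 95.2 and 92.2 CPM at 100 µg/ml. At 72 h it read 119.8, 91.7 and 80.2 CPM at 1 µg/ml, 118, 115 and 91 CPM at 10 µg/ml and 101, 88.4 and 106 CPM at 100 µg/ml. All 27 libraries lay above the untreated ones, and library 1 of the 10 µg/ml group at 48 h lay far above the other 26. The differences called were 0.80 ± 0.25 and 0.87 ± 0.25 at 1 and 10 µg/ml after 24 h, 0.64 ± 0.25 and 1.61 ± 0.24 after 48 h, and 0.61 ± 0.25, 0.77 ± 0.25 and 0.63 ± 0.25 at 1, 10 and 100 µg/ml after 72 h. Leaving out library 1 of its group took the value at 1 µg/ml after 24 h to 0.57 (adjusted p = 0.12) and that at 10 µg/ml after 48 h to 0.80, still called. The calls at 1 µg/ml after 48 and 72 h and at 100 µg/ml after 72 h were each lost on leaving out any library but 1 of the 6 (library 3, 3 and 2 of the C1q group), at log2 0.44 to 0.65, and were not called by DESeq2.

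Scara5 (chromosome 14, 65666403 to 65764826), a scavenger receptor that takes up ferritin, had untreated levels of 10.02, 10.0 and 6.39 CPM. It read 15.4, 16.6 and 16.5 CPM at 1 µg/ml, 13.2, 17 and 12.5 CPM at 10 µg/ml and 15, 14.3 and 12.2 CPM at 100 µg/ml at 24 h, all above the untreated libraries, and was called higher by 0.88 ± 0.25, 0.70 ± 0.26 and 0.65 ± 0.25 at 1, 10 and 100 µg/ml. Without library 3 of the untreated group, the lowest of its group, these values were 0.68, 0.49 and 0.44, with adjusted p of 0.072, 0.22 and 0.24, so that none was called. The calls at 10 and 100 µg/ml were also lost without library 2 of the untreated group or libraries 1 or 2 of the C1q group, and that at 100 µg/ml without library 1 of the untreated group. At 48 h the 9 libraries lay between 9.69 and 16.8 CPM and 0 of the 3 groups was called. The difference at 100 µg/ml was 0.64, just over the threshold (adjusted p = 0.0504, edgeR's quasi-likelihood test). It was called without library 3 of that group (0.82), without the most abundant gene (0.65) and with only the libraries compared (0.66). At 1 µg/ml it was 0.56 (adjusted p = 0.093), and was called without library 2 of that group (0.72). At 72 h Scara5 read 10.7, 8.52 and 14.5 CPM at 1 µg/ml, 9.0, 11 and 10.6 CPM at 10 µg/ml and 11.7, 15.6 and 25.2 CPM at 100 µg/ml, and the difference at 100 µg/ml, 0.99 ± 0.25, was called (adjusted p = 0.0012, edgeR's quasi-likelihood test). Without library 3 of that group, the highest, it was 0.65 (adjusted p = 0.049). The 100 µg/ml libraries differed among themselves more than those of the other doses.

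Cd34 (chromosome 1, 194938821 to 194961292), a sialomucin of progenitor and endothelial cells, and Dpp4 (chromosome 2, 62330073 to 62412315), a membrane peptidase that trims N-terminal dipeptides, showed the fewest called differences of the 10. Cd34 stood at 27.3, 25.3 and 19.2 CPM in untreated cells and between 14.8 and 38.2 CPM in the 36 C1q libraries. Its 1 call was at 100 µg/ml after 72 h, where it read 22.3, 35.1 and 38.2 CPM, overlapped untreated cells and was higher by 0.43 ± 0.18 (adjusted p = 0.045, edgeR's quasi-likelihood test). That call was lost without library 2 or 3 of either group (log2 0.44, 0.26, 0.33 and 0.29), under RLE scaling, without the filter and by DESeq2. Of the 7 endothelial genes tested, 1 was higher and 2 were lower in the same comparison, and their part in the value of Cd34 was not tested. Dpp4 stood at 14.4, 12.6 and 13.6 CPM in untreated cells and between 7.81 and 21.3 CPM in C1q libraries. Its differences from untreated cells ran from -0.32 at 1 µg/ml after 2 h to 0.47 at 1 µg/ml after 72 h.

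Il33 (chromosome 19, 29925113 to 29960718) encodes the nuclear alarmin IL-33, a cytokine of the IL-1 family released from damaged cells. Its untreated level was 19.2, 32.1 and 24.3 CPM. At 24 h it read 48, 45.5 and 44.5 CPM at 1 µg/ml, 33.8, 37.9 and 42.2 CPM at 10 µg/ml and 16.2, 17.9 and 17.8 CPM at 100 µg/ml, so that libraries at 1 and 10 µg/ml lay above and those at 100 µg/ml below all untreated ones. At 48 h the levels were 37.9, 39.98 and 36.2 CPM at 1 µg/ml, 39, 44.1 and 39.5 CPM at 10 µg/ml and 23.1, 17.2 and 20.4 CPM at 100 µg/ml. At 72 h they were 29.4, 32.5 and 29.8 CPM at 1 µg/ml, 47.5, 31.6 and 28.3 CPM at 10 µg/ml and 22.8, 23.4 and 26.6 CPM at 100 µg/ml. The 100 µg/ml libraries lay below those of both other doses at all 3 times. Against untreated cells Il33 was higher by 0.89 ± 0.15 and 0.62 ± 0.16 at 1 and 10 µg/ml after 24 h and called lower, at -0.51 ± 0.18, at 100 µg/ml. The last call was lost without library 2 of the untreated group (-0.34, adjusted p = 0.18) or library 1 of the C1q group (-0.49, adjusted p = 0.055).

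At 48 h Il33 was higher by 0.62 ± 0.16 and 0.72 ± 0.16 at 1 and 10 µg/ml, and at 72 h by 0.53 ± 0.16 at 10 µg/ml. Without library 1 of the untreated group, the lowest in Il33, the values at 10 µg/ml after 24 h, 1 µg/ml after 48 h and 10 µg/ml after 72 h were 0.43, 0.41 and 0.33, none called, and the last was 0.27 without library 1 of its own group. At 100 µg/ml after 48 and 72 h Il33 differed from untreated cells by -0.30 ± 0.18 and -0.03 ± 0.17, neither called. Without library 1 of the untreated group the 48 h value was -0.49 and called lower (adjusted p = 0.044), and without library 2 it was -0.13. It was -0.19 without library 2 of the C1q group.

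Osr2 (chromosome 15, 35296098 to 35303305), a zinc-finger transcription factor of the odd-skipped family, was the 1 member that fell at 2 h. From 13.6, 16.3 and 12.8 CPM in untreated cells it went to 4.61, 2.17 and 4.08 CPM at 1 µg/ml, 1.40, 5.09 and 1.53 CPM at 10 µg/ml and 3.96, 3.64 and 3.29 CPM at 100 µg/ml, with 3 to 13 counts per library and no overlap with untreated cells. The differences were -1.91 ± 0.30, -2.42 ± 0.34 and -1.94 ± 0.32 (adjusted p = 9.3e-06, 5.1e-07 and 3.6e-05, edgeR's quasi-likelihood test). By 24 h Osr2 read 30.1, 40.1 and 30.5 CPM at 1 µg/ml, 29.4, 45.8 and 39.6 CPM at 10 µg/ml and 20.2, 23.4 and 16.4 CPM at 100 µg/ml, above untreated cells in all 9 libraries. It was called higher at 1 and 10 µg/ml, by 1.25 ± 0.20 and 1.45 ± 0.20, and differed by 0.50 ± 0.22 at 100 µg/ml (adjusted p = 0.066). The latter was called without library 3 at 100 µg/ml (0.61, adjusted p = 0.043) and with only the libraries compared (0.49, adjusted p = 0.0498). At 48 h it was back between 13.7 and 22.4 CPM, with 0 of 3 groups called, and at 72 h it was higher again, by 1.32 ± 0.20, 1.11 ± 0.20 and 1.19 ± 0.21 at the 3 doses.

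Doses were then compared at equal times. At 100 against 1 µg/ml, every member called at 24 and 48 h was lower, and those called at 72 h went both ways. At 2 h 0 members were called, against 1.28% of all tested genes higher and 1.94% lower. At 24 h 5 of 10 were lower and 0 higher, against 7.21% and 3.77% of all tested genes. At 48 h 3 were lower and 0 higher, against 6.44% and 3.82%, and at 72 h 2 were lower and 1 higher, against 6.51% and 4.99%. The median over the 10 members was -0.12, -0.63, -0.31 and -0.06 at 2, 24, 48 and 72 h, and that over all tested genes lay between -0.02 and 0.03. The median at 2 h was -0.22 without library 2 at 1 µg/ml and -0.19 without library 3 at 100 µg/ml. At 72 h it turned to 0.07 without library 1 at 1 µg/ml, was -0.12 without library 2 or library 3 of that dose, and was -0.007 and -0.11 without libraries 2 and 3 at 100 µg/ml, so its sign depends on which libraries enter.

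At 24 h the members lower at 100 than at 1 µg/ml were Il33, with a log2 difference of -1.41 ± 0.16, Osr2 with -0.76 ± 0.18, Dpt with -0.70 ± 0.12, Cilp with -0.69 ± 0.19 and Clec3b with -0.65 ± 0.10. The adjusted p ran from 8.0e-09 for Il33 to 0.014 for Cilp (edgeR's quasi-likelihood test). The groups of 3 did not overlap in any of these 5 genes, which were named because they were called. Overlap was not counted over all tested genes. The call for Cilp was lost without library 1 at 1 µg/ml (-0.64) or library 3 at 100 µg/ml (-0.66), and that for Osr2 without library 2 at 1 µg/ml (-0.60). Without library 3 at 1 µg/ml, the one that stood apart, the values were -1.44 for Il33, -0.83 for Osr2, -0.82 for Dpt, -0.65 for Cilp and -0.69 for Clec3b, all called, and Ly6a was called as well (-0.76, against -0.61 ± 0.24 with it, adjusted p = 0.093). That library and all those at 10 and 100 µg/ml after 24 h share a spelling in the table's header. Libraries 1 and 2 at 1 µg/ml lack it, and with those 2 left out library 3 alone stood for 1 µg/ml. Dpt, Cilp and Osr2 then lost their calls, at -0.46, -0.81 and -0.61. With all libraries, 4 of the 7 general fibroblast markers were lower at 100 than at 1 µg/ml, and 2 of the 5 myofibroblast genes were higher. Of the 9 myeloid, 7 endothelial, 7 epithelial and 6 pericyte and smooth muscle genes tested, 1 each was lower, and of the 6 mesothelial genes 0 were called; their part in the result was not tested.

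At 48 h Dpt (-0.91 ± 0.11), Il33 (-0.91 ± 0.17) and Cilp (-0.70 ± 0.20) were lower at 100 than at 1 µg/ml, with adjusted p of 2.8e-08, 0.00014 and 0.016 (edgeR's quasi-likelihood test). Cilp was not called without library 1 at 1 µg/ml (-0.48) or library 3 at 100 µg/ml (-0.63). At 48 h 3 of the 7 general fibroblast, 3 of the 9 myeloid, 2 of the 7 endothelial, 2 of the 6 mesothelial, 2 of the 5 myofibroblast, 1 of the 7 epithelial and 1 of the 6 pericyte and smooth muscle genes were lower as well and 0 higher, and their part was not tested. At 72 h Dpt was lower, at -0.66 ± 0.10 (adjusted p = 4.3e-06), a call that held on leaving out any 1 of the 6 libraries. Dpp4 was lower, at -0.63 ± 0.22, and Clec3b higher, at 0.30 ± 0.09, both near the threshold (adjusted p = 0.049 and 0.029). Clec3b lost its call on leaving out any library but library 3 at 1 µg/ml, at 0.27 to 0.31, and Dpp4 on leaving out any but library 2 at 1 µg/ml, at -0.73 to -0.54. Pi16 and Scara5 were at 0.61 ± 0.22 and 0.64 ± 0.24 at 72 h (adjusted p = 0.068 and 0.068), and Cilp was at -0.58 (adjusted p = 0.076, edgeR's quasi-likelihood test). Cilp was called lower without the filter (-0.62) or without library 2 at 1 µg/ml (-0.74). Scara5 was called higher without library 3 at 1 µg/ml (0.87) or library 1 at 100 µg/ml (0.84). In the same comparison at 72 h, 5 of the 9 myeloid, 3 of the 7 endothelial, 3 of the 6 mesothelial and all 5 myofibroblast genes were lower. Of the 7 general fibroblast markers 2 were higher and 1 lower, and 0 epithelial or pericyte genes were called. The part of these lists was not tested.

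**Figure D3:**
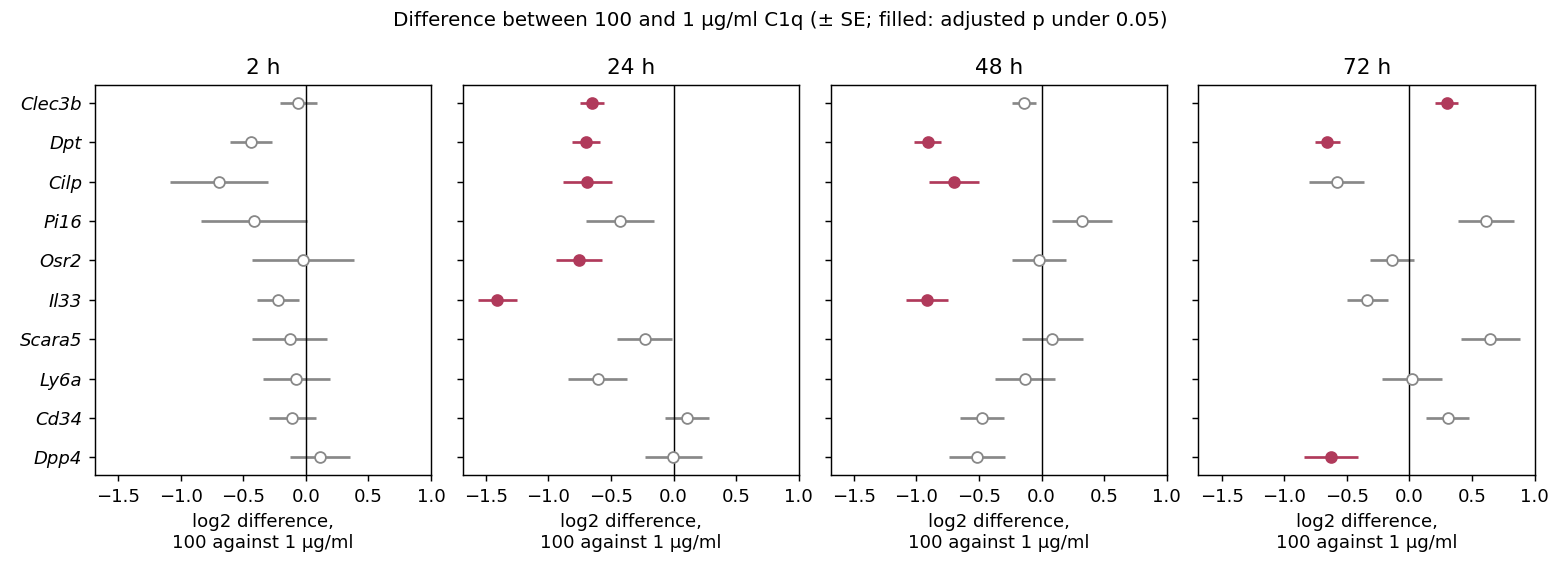
Log2 difference between 100 and 1 µg/ml C1q for each of the 10 genes (points, with bars of 1 SE from the fit with 3 libraries per group) at 2, 24, 48 and 72 h, filled where the adjusted p was under 0.05. At 24 h the filled points lie between -1.41 and -0.65, and at 72 h Clec3b lies at 0.30 while Dpt and Dpp4 lie at -0.66 and -0.63.

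The dose difference of Clec3b changed with time, and so did that of Il33. The 100 against 1 µg/ml difference of Clec3b was -0.65 ± 0.10 at 24 h, -0.14 ± 0.09 at 48 h and 0.30 ± 0.09 at 72 h, and it was 0.95 ± 0.13 larger at 72 h than at 24 h (adjusted p = 1.4e-05, edgeR's quasi-likelihood test). For Il33 it was -1.41 ± 0.16, -0.91 ± 0.17 and -0.34 ± 0.16, and the change from 24 to 72 h was 1.07 ± 0.23 (adjusted p = 0.0052). Both calls held on leaving out any 1 of the 12 libraries, at 0.87 to 1.00 for Clec3b and 1.00 to 1.12 for Il33. These were the 2 of 10 members called, against 1.49% of all tested genes. Over all 4 times, the F test that the dose difference was the same called the same pair, with adjusted p of 4.7e-05 for Clec3b and 0.0011 for Il33, against 6.78% of all tested genes. Dpt, which was lower at 100 µg/ml at 24, 48 and 72 h, had a change from 24 to 72 h of 0.04 ± 0.15, and Cilp of 0.11 ± 0.29. Pi16 changed by 1.04 ± 0.35, a size like that of Il33 but with a wider error (adjusted p = 0.15).

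Few differences were called between 10 and 1 µg/ml. At 2, 24 and 72 h, 0 members were called, against 0.839%, 0.0485% and 0% of all tested genes in either direction. At 72 h edgeR called 0 genes of 14419, with 611 at an unadjusted p under 0.05, and DESeq2 called 0, with 308. At 48 h Ly6a was called, at 0.98 ± 0.22 (adjusted p = 0.042), against 0.208% of all tested genes, and the 2 groups overlapped in it. Without library 1 at 10 µg/ml the difference was 0.16 (adjusted p = 0.9998), and the call was also lost without any 1 of the 3 libraries at 1 µg/ml (1.06, 0.97 and 0.91). Cd34 read 37.2, 24.6 and 33.5 CPM at 1 µg/ml and 22.3, 20.05 and 20.4 CPM at 10 µg/ml after 48 h without overlap, but its difference of -0.60 ± 0.18 had an adjusted p of 0.26.

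Ly6a in library 1 at 10 µg/ml after 48 h moved with interferon-induced genes, a list of 9 chosen after the values were seen (Ifit1, Ifit3, Isg15, Irf7, Ifi44, Usp18, Bst2, Ly6e and Rsad2). Ly6a was at 357 CPM there, from 896 counts, against 96.7 and 124 CPM in the other 2 libraries of the group and at most 143 CPM in the other 38 libraries. All 9 interferon-induced genes were higher in that library than in any other, from 3.89 times the mean of the other 2 for Ly6e, a lipid-anchored relative of Ly6a, to 17.7 times for Ifi44. Isg15, a ubiquitin-like protein, read 371 CPM against 24.9 and 49.4 CPM. Their sum was 2869.6 CPM in that library. The next highest sum, 878 CPM, was in library 1 at 1 µg/ml after 24 h, which also held the next highest Ly6a level, 143 CPM. The fourth and the fifth highest sums, 711 and 668 CPM, were in libraries at 100 µg/ml with Ly6a at 72.4 and 92.2 CPM, lower than in several libraries with smaller sums. The other members differed less there. Clec3b read 666 CPM against 668 CPM and 653 CPM in its group, Dpt 209 against 185 and 190.5 CPM, and Cilp 23.5 against 28.5 and 37.2 CPM. The library was also lowest of its group in Pi16, Il33 and Osr2 and highest in Cd34 and Dpp4.

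**Figure D4:**
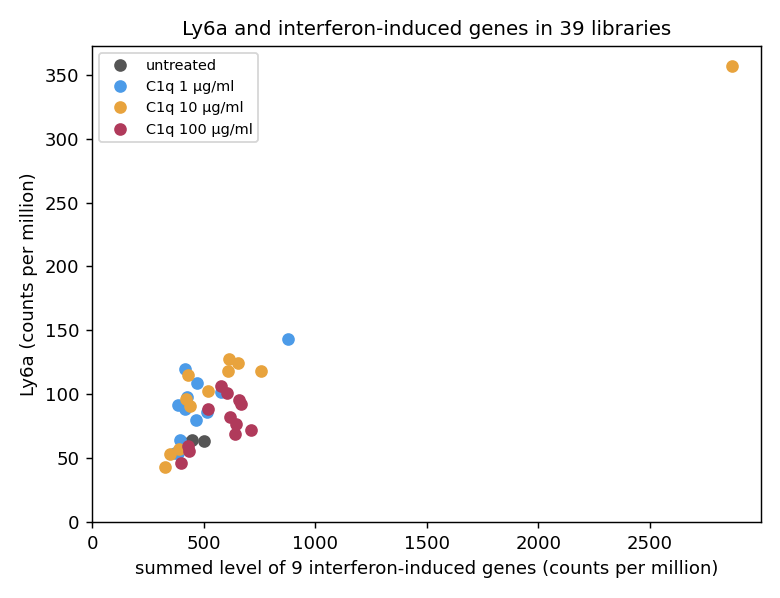
Ly6a level against the summed level of 9 interferon-induced genes (both in counts-per-million, linear axes starting at 0), 1 point per library, coloured by untreated cells and C1q dose. The library at 2869.6 and 357 CPM is library 1 of the 10 µg/ml group at 48 h, and the other 38 lie at or below 878 and 143 CPM.

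Between neighbouring times, averaged over the 3 doses, more members were called from 2 to 24 h than between later times. From 2 to 24 h 8 of the 10 markers rose and 0 fell, against 29.3% and 28.6% of all tested genes. On the log2 scale Clec3b rose by 3.39 ± 0.07, Osr2 by 3.16 ± 0.16, Cilp by 2.49 ± 0.16, Dpt by 1.84 ± 0.08, Pi16 by 1.28 ± 0.19, Scara5 by 0.99 ± 0.15, Ly6a by 0.85 ± 0.15 and Il33 by 0.32 ± 0.09, while Cd34 and Dpp4 were at 0.10 ± 0.11 and -0.01 ± 0.13. The rise of Osr2 starts from its low at 2 h. That of Il33 is an average over doses that differed, and the step was not tested within a dose. Its mean went from 25.4 ± 1.5 to 46 ± 1.81 CPM at 1 µg/ml and from 28 ± 1.26 to 38 ± 4.20 CPM at 10 µg/ml, but from 22.1 ± 3.78 to 17.3 ± 0.93 CPM at 100 µg/ml (± SD, n = 3). From 24 to 48 h 3 rose and 1 fell, against 12.8% and 12.1%: Clec3b by 1.04 ± 0.06, Dpt by 1.01 ± 0.06 and Pi16 by 0.52 ± 0.15, with Osr2 at -0.70 ± 0.11. From 48 to 72 h 2 rose and 1 fell, against 8.38% and 8.27%: Dpt by 0.88 ± 0.06 and Osr2 by 0.84 ± 0.11, with Cilp at -0.45 ± 0.12. All 15 of these calls held on leaving out any 1 library. The sum of the myeloid genes rose over the same steps, and its part was not tested.

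Patterns over the groups differed among the members. Over the 13 group means of log2 CPM, Clec3b ran closely with Pi16 (Pearson r = 0.95, Spearman rho = 0.91), Dpt (0.95 and 0.92) and Cilp (0.93 and 0.58), and Dpt with Pi16 (0.92 and 0.90). Il33 ran weakly with Clec3b (0.38 and 0.33) and Pi16 (0.33 and 0.18), and the pair of Cd34 and Il33 was at 0.003 and -0.07. Dpp4 and Scara5 had the lowest r (-0.05 and -0.19). These values describe 13 means that share their untreated cells, libraries and culture times. Among tested genes with a mean log2 CPM of at least 3, those most like Clec3b by r were Igfbp5 (0.993), Serping1 (0.991), Cygb (0.990), Nkain4 (0.988) and Selenop (0.987). Igfbp5 binds insulin-like growth factors, Serping1 is the C1 esterase inhibitor, and Selenop carries selenium. Those most like Il33 were Aldh1a3 (0.955), which makes retinoic acid, Tspan11 (0.931), Serpinb1a (0.925), Sil1 (0.923) and Hgf (0.914), the hepatocyte growth factor. Those most like Scara5 were Sned1 (0.968), Ak3 (0.964), Mmp11 (0.959), AW112010 (0.954) and Ctso (0.953).

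Other genes described for adventitial fibroblasts moved in both directions. Of a list of 22, 21 were tested. At 24 h 12, 11 and 10 were higher and 1, 1 and 3 lower than in untreated cells at 1, 10 and 100 µg/ml, and at 72 h 12, 11 and 13 were higher and 3 lower at each dose. Of all tested genes at 24 h, 10.9%, 12.5% and 16.8% were higher and 14.3%, 15.3% and 19.9% lower. The shares at 72 h were 18.1%, 19.3% and 22.5% higher and 20.1%, 20.6% and 23.3% lower. The median difference was 0.46, 0.38 and 0.36 at 24 h and 0.44, 0.49 and 0.82 at 72 h. At 100 µg/ml after 72 h the largest rises among those with a mean log2 CPM of at least 3 were Igfbp4 (1.77 ± 0.09), whose product holds insulin-like growth factors, the semaphorin Sema3c (1.69 ± 0.10), fibulin 1 (Fbln1, 1.48 ± 0.11) and Col15a1 (1.47 ± 0.26), a basement membrane collagen. The falls were Anxa3 (-1.64 ± 0.10), an annexin, Ly6c1 (-0.78 ± 0.31) and Fbln2 (-0.37 ± 0.08). At 100 against 1 µg/ml, 6 of the 21 were lower and 1 higher at 24 h, against 7.21% and 3.77% of all tested genes. Among them were Igfbp4 (-1.16 ± 0.09), Fbln1 (-0.68 ± 0.10), the complement regulator Cd55 (-0.58 ± 0.15) and Efemp1 (-0.51 ± 0.11), with Igfbp6 higher (0.43 ± 0.09). At 72 h 6 were higher and 4 lower, against 4.99% and 6.51% of all tested genes. The dose difference changed from 24 to 72 h in 9 of the 21, upward in 8 of them, against 1.49% of all tested genes.

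A list of 18 genes of alveolar fibroblasts, 17 of them tested, was counted the same way. At 24 h 9, 9 and 8 were higher and 2, 3 and 3 lower at 1, 10 and 100 µg/ml, and at 72 h 10, 10 and 13 were higher and 3, 3 and 2 lower. The shares of all tested genes in these comparisons are those given for the list above. At 100 µg/ml after 72 h Mfap4 (2.96 ± 0.09), a microfibril protein, Ces1d (2.66 ± 0.14), a carboxylesterase, Inmt (2.14 ± 0.10), a methyltransferase, and Vegfd (1.05 ± 0.08) rose most, and Cxcl14 (-1.88 ± 0.11) and Wnt2 (-1.47 ± 0.18) fell. At 100 against 1 µg/ml, 3 of the 17 were lower and 1 higher at 24 h, against 7.21% and 3.77% of all tested genes. Itga8 was higher (0.92 ± 0.10), and Wnt2 (-0.81 ± 0.14), Cxcl14 (-0.56 ± 0.10) and Adh1 (-0.38 ± 0.08) were lower. At 72 h 6 were higher and 1 lower, against 4.99% and 6.51% of all tested genes. The dose difference changed from 24 to 72 h in 4 of the 17, upward in all 4, against 1.49% of all tested genes. The median over the 10 adventitial markers was 1.04, 1.11 and 0.57 at 24 h, 0.63, 1.11 and 0.57 at 48 h, and 0.97, 0.94 and 1.09 at 72 h. Without library 1 at 10 µg/ml the value there at 48 h was 0.77. The median over the other adventitial genes was 0.82 and over the alveolar genes 0.90 at 100 µg/ml after 72 h, and that over all tested genes lay between -0.03 and 0.05 in all 12 comparisons. The 1.09 of the markers at 100 µg/ml after 72 h ran from 0.90 to 1.16 on leaving out 1 library. It was lowest without library 3 of that group, and 0.93 without library 3 of the untreated group. Such values were not computed for the other lists.

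**Figure D5:**
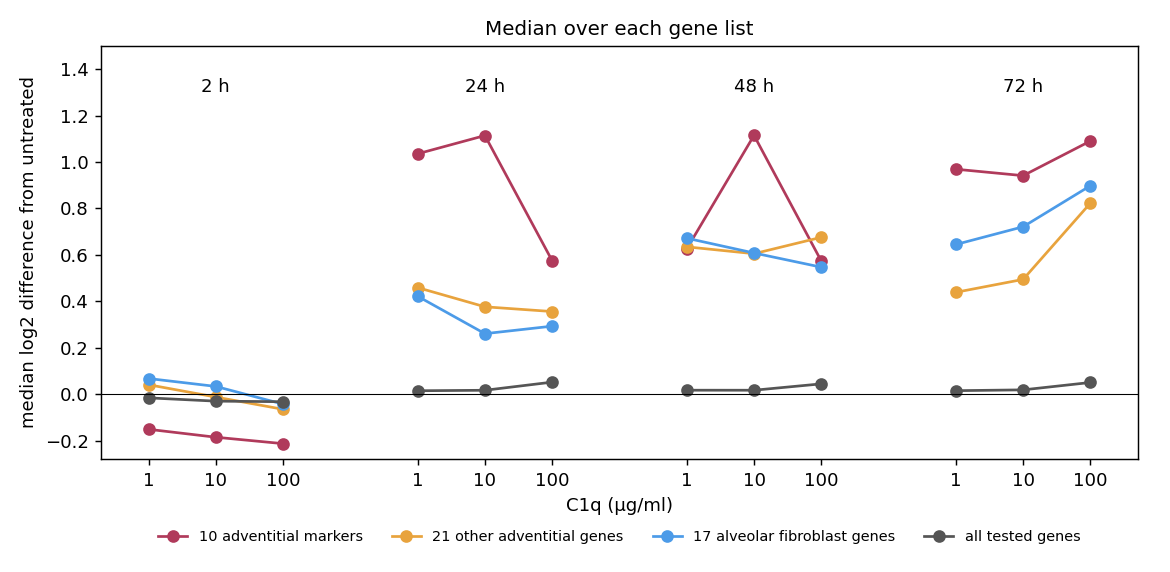
Median log2 difference from untreated cells (vertical axis) at each C1q dose in µg/ml and time for the 10 adventitial markers, 21 other adventitial genes, 17 alveolar fibroblast genes and all tested genes, with lines joining the doses of 1 time. At 2 h the medians of the 10 markers lie between -0.21 and -0.15, and those of the other adventitial and the alveolar genes between -0.07 and 0.07. From 24 h on the medians of the 3 lists lie between 0.26 and 1.11. All tested genes stay between -0.03 and 0.05 at all times.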

How the data were processed

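The libraries were made from poly(A) RNA and read at the 5′ ends of transcripts (Illumina NovaSeq), according to the labels. The submitters' processing notes list cutadapt 2.1.0, Bowtie2 2.4.2 and the mouse build GRCm38. How reads were counted, with which annotation, and how strand, multiple matches and molecular identifiers were handled is not given in the sources used here, so reads of overlapping or near-identical genes (Ly6a has close paralogs) may be shared among them. The deposited table of the authors holds raw, whole-number counts of 30012 genes in 39 columns. All columns were used here and matched to samples by title and serial number, and for 9 columns with a second spelling by the number alone.

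Groups are the combinations of dose and time in the labels, which do not say whether replicates are separate cultures or animals. The p-values therefore reflect no more than the variation among these libraries, possibly technical. The test was edgeR's quasi-likelihood F test (version 4.0.16 under R 4.3.3), run in 1 fit of 39 libraries, after TMM scaling and edgeR's default filter (14419 genes, 99.4% of counts), with Benjamini-Hochberg adjustment over all tested genes and a threshold of 0.05. SEs are the log2 difference divided by the square root of the F statistic. With 1806106 to 3012518 counts per library, members with under about 10 counts in a library are measured coarsely.

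The members and lists were chosen with earlier results of these data known. Named list genes are those called with the largest change at 100 µg/ml after 72 h against untreated cells, or at 100 against 1 µg/ml after 24 h, up to 4 per direction and list, with a mean log2 CPM of at least 3. Genes of like pattern are the 5 with the highest Pearson r over the 13 group means. Alternatives were RLE scaling, no filter, DESeq2 1.42.0, a fit of only the libraries compared, leaving out the most abundant gene (LOC118568312), leaving out each library, and, chosen after seeing the data, the second spelling alone at 24 h. The test was also run on simulated counts with known changes at 100 µg/ml after 72 h, drawn with the spread that edgeR estimated. Those counts hold no outlying libraries, so that run says nothing about their influence. Sequences and coordinates are RefSeq's for GRCm38.p6, matched by symbol, and figures were drawn with matplotlib 3.10.9 (Python 3.11.15).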

Additional observations from a re-analysis of the deposited data

Results flagged for a closer look

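The difference between 100 and 1 µg/ml C1q in Clec3b was 0.95 ± 0.13 larger on the log2 scale at 72 h than at 24 h (edgeR's quasi-likelihood test, adjusted p = 1.4e-05), since the difference between the doses itself changed with time. The same test gave 1.07 ± 0.23 for Il33 (adjusted p = 0.0052). In both genes all 3 libraries at 100 µg/ml lay below all 3 at 1 µg/ml after 24 h. Each gap kept its sign and stayed called on leaving out any 1 of the 12 libraries, at 0.87 to 1.00 for Clec3b and 1.00 to 1.12 for Il33. In the same test 3 of the 7 general fibroblast markers and 1 of the 6 pericyte and smooth muscle genes changed upward, and 3 of the 5 myofibroblast genes and 1 of the 6 mesothelial genes downward. Of the 9 myeloid, 7 endothelial and 7 epithelial genes, 0 were called. Their part in the result was not tested.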

How the results depend on the processing

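Over single members, 2958 values under an alternative kept their side of the threshold, 74 were no longer called, 32 became called, and 0 changed direction among those called. Changes of direction among values called in neither fit were not counted. Of 90 calls of single members, 72 held on leaving out any 1 library and 18 were lost at least once; the calls lost on leaving out 4 or 5 of the 6 libraries in turn were of Ly6a, Scara5, Cd34, Clec3b and Dpp4. The number of members called at 10 against 1 µg/ml after 48 h was 1, and 0 with DESeq2 and with only the libraries compared. Leaving out 1 library gave 0 to 1 there, 1 to 2 at 10 µg/ml after 2 h against untreated cells (1 with all libraries), 3 to 7 at 100 µg/ml after 24 h (5), and 1 to 3 at 100 against 1 µg/ml after 72 h (3). With the second spelling alone, which leaves 1 library at 1 µg/ml, assumed to vary like the other groups, 2 members were called at 100 against 1 µg/ml after 24 h in place of 5. No paired analysis was possible because the replicate numbers follow accession order and the labels tie no libraries together.

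Counts over all tested genes moved more. Without the filter, 81, 78 and 7 genes were called at 10 against 1 µg/ml after 24, 48 and 72 h, in place of 7, 30 and 0, and with DESeq2 16 at 48 h. With only the libraries compared, 302 and 685 genes were called at 100 against 1 µg/ml after 2 and 24 h in place of 465 and 1582, and 50, 1 and 0 at 10 against 1 µg/ml after 2, 24 and 48 h in place of 121, 7 and 30. The second spelling alone gave 287 at 100 against 1 µg/ml after 24 h. Leaving out 1 library gave 567 to 724 at 1 µg/ml after 2 h (887) and 466 to 558 at 100 µg/ml (744), 233 to 446, 920 to 2203, 957 to 1146 and 1068 to 1334 at 100 against 1 µg/ml after 2, 24, 48 and 72 h (465, 1582, 1480 and 1658), 45 to 177, 0 to 168 and 1 to 73 at 10 against 1 µg/ml after 2, 24 and 48 h, 141 to 444 for the change of the dose difference from 24 to 72 h (215) and 707 to 1473 for the F test (978). The cause was not tested. Depth limits Pi16, Cilp and Osr2 most, with 7 to 12 counts of Pi16 and 8 to 9 of Cilp in untreated libraries, and 5 to 13, 4 to 20 and 3 to 13 counts of Pi16, Cilp and Osr2 in 2 h libraries.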
